A study of Homo sapiens with 14 samples.

Results

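The genes described here build and load the major histocompatibility complex (MHC) class I complex. They are 9 of the 58219 genes in a count table from OVCAR4 cells, and they were taken by symbol: HLA-B, HLA-C, HLA-E, HLA-F, B2M, TAP1, TAP2, TAPBP and NLRC5. OVCAR4 is an established human cell line of high-grade serous ovarian cancer. The table holds 14 libraries in 7 groups of 2, each from 300000 cells reverse transfected with 120 nM of small interfering RNA (siRNA) and harvested at 72 hours. The groups siPAX8, siSOX17, siMECOM and siWT1 received Dharmacon siRNA against the transcription factor in their name, and siDual received the PAX8 and SOX17 reagents together. The controls were siNT1, a Dharmacon ON-TARGETplus non-targeting pool, and siNT2, a custom non-targeting pool. All groups are cultures of the same line. Nothing in the labels ties the 2 libraries of a group to separate transfections, and p-values reflect the spread between libraries alone, which may be technical.

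MHC class I molecules display peptides from inside the cell to CD8 T cells and natural killer (NK) cells. Proteasomes cut the peptides, the transporter formed by TAP1 and TAP2 moves them into the endoplasmic reticulum, and tapasin, the product of TAPBP, holds the transporter next to empty class I molecules while they are loaded. A class I molecule pairs a heavy chain, such as HLA-B or HLA-C, with beta-2 microglobulin from B2M, and tumours of many kinds lower the expression of this pathway. NLRC5 is a transactivator that acts on class I promoters together with RFX5, RFXAP and RFXANK, and interferon raises the pathway through IRF1 and NLRC5.

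The libraries held 40832825 to 49803860 counts, and 27628 to 29311 genes were detected in each. The targeted transcripts were low where they were targeted: PAX8 stood at 32.8 and 38.3 CPM (the usual library-size-normalised read count, on TMM-scaled totals) in siPAX8, against 192 to 225 CPM in the 4 control libraries. SOX17 stood at 15.7 and 13.1 CPM in siSOX17, against 104 to 119 CPM in controls, and MECOM at 8.76 and 16.4 CPM in siMECOM, against 125 to 133 CPM. In siDual PAX8 stood at 52.8 and 50.6 CPM and SOX17 at 15.9 and 17.7 CPM, and PAX8 was higher there than in siPAX8 by 0.54 ± 0.09 on the log2 scale (adjusted p = 0.000124). MECOM was lower in siDual (log2 fold change -1.40 ± 0.14), siSOX17 (-1.54 ± 0.14), siPAX8 (-0.41 ± 0.13) and siWT1 (-0.35 ± 0.13) than in controls. SOX17 was lower in siPAX8 as well (-0.46 ± 0.09). WT1 was near the detection floor throughout, at 0 and 0.0192 CPM in siWT1 and 0.330 to 0.430 CPM in controls, so siWT1 is described here as the group that received the WT1 reagent. PAX8 was also lower in siWT1 (log2 fold change -0.83 ± 0.07, SE). Mitochondrially encoded genes took 7.91 to 11.0% of the counts in knockdown libraries and 5.34 to 6.13% in controls. Summed leukocyte markers reached 11.1 to 40.6 CPM, here on unscaled totals, in knockdown libraries and 19.8 to 23.8 CPM in controls, nearly all of it CD68, while MS4A1 was at 0 in every library. Summed fibroblast markers reached 26.3 to 76.2 CPM in knockdown libraries and 36.0 to 44.5 CPM in controls, and summed endothelial markers 5.89 to 19.8 CPM in knockdown libraries and 8.81 to 10.9 CPM in controls. Summed serous ovarian epithelial markers reached 8446 to 19280 CPM in siPAX8, siSOX17 and siDual and 4242 to 5518 CPM in siMECOM and siWT1, against 4400 to 5198 CPM in controls. Single genes of this list went both ways. In siPAX8 the increases were led by the keratins KRT8 (log2 fold change 1.42 ± 0.11), KRT18 (1.25 ± 0.13) and KRT7 (1.04 ± 0.09). The decreases there were led by MSLN (-1.20 ± 0.32), CLDN3 (-0.67 ± 0.10) and WFDC2 (-0.45 ± 0.11), and EPCAM and CDH1 were not called. The leukocyte and fibroblast sums were also above all controls in siPAX8, siSOX17 and siDual and below them in siMECOM and siWT1. Their part in the results below was not tested. In bulk RNA, fewer cells expressing a gene and less RNA per cell cannot be told apart.

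Of the 9 genes, 7 lie in the MHC region of chromosome 6 (hg38): HLA-F at 29722775 to 29738528, HLA-E at 30489467 to 30494205, HLA-C at 31268749 to 31272130, HLA-B at 31269491 to 31357188, TAP2 at 32821833 to 32838780, TAP1 at 32845209 to 32853978 and TAPBP at 33299694 to 33314387. B2M lies on chromosome 15 at 44711477 to 44718877 and NLRC5 on chromosome 16 at 56989485 to 57083531. The strand setting of the counting is not given in the sources used here, so reads of overlapping genes on opposite strands cannot be told apart. AL671883.2 on the opposite strand covers 17.8% of the exon bases of HLA-B, and its own log2 fold change in siWT1 was 0.92 ± 0.13 (adjusted p = 2.19e-05). PSMB8-AS1, opposite to TAP1, covers 10.0% of the TAP1 exon bases, and AL669918.1, on the same strand as TAP2, covers 32.3% of those of TAP2. Other genes overlap 28.5% of the HLA-F exon bases, and none overlaps those of HLA-E, B2M, TAPBP or NLRC5. Of the distinct 50-base windows of their coding transcripts, 32.7% in TAP2, 6.2% in HLA-C, 5.1% in HLA-E and in TAPBP, 2.1% in HLA-B, 1.3% in HLA-F and 1.0% in TAP1 also occur in other genes, so TAP2 counts are uncertain too. The HLA genes are highly polymorphic, the alleles of OVCAR4 differ from the reference to a degree not examined here, and single HLA genes are therefore uncertain beside their sum.

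The promoters are shown because the genes share a compact set of upstream motifs in the textbook account of their control. RefSeq promoter entries (GRCh38.p14) were matched by symbol for 7 of the 9 genes, all except HLA-E and NLRC5. The 200 bases before the RefSeq start follow, 5′ to 3′ on the gene's strand, from the reference genome and not from OVCAR4, and for TAP1 the more upstream of its entries is printed. Capitals mark matches on either strand to the core of the interferon-stimulated response element (ISRE, GAAANNGAAA), the CCAAT box (CCAAT), the cyclic AMP response element half-site (TGACG) and the NF-kB consensus; neighbouring matches can overlap.
HLA-B, chr6:31357180-31357379, minus strand: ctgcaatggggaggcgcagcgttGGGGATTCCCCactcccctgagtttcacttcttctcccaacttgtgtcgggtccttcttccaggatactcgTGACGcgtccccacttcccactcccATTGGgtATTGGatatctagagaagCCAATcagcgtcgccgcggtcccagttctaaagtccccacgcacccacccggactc
HLA-C, chr6:31272093-31272292, minus strand: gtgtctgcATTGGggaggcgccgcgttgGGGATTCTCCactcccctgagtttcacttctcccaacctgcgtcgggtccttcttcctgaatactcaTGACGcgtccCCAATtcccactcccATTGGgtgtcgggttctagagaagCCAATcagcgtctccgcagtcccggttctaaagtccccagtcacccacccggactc
HLA-F, chr6:29723234-29723433, plus strand: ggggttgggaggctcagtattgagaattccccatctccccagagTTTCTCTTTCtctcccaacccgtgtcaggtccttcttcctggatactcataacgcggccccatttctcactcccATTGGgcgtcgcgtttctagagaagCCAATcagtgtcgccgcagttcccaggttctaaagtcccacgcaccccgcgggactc
B2M, chr15:44711317-44711516, plus strand: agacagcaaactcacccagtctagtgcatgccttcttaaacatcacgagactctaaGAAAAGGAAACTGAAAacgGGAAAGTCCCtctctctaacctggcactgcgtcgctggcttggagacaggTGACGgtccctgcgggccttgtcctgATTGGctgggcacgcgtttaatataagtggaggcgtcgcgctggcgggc
TAP1, chr6:32853705-32853904, minus strand: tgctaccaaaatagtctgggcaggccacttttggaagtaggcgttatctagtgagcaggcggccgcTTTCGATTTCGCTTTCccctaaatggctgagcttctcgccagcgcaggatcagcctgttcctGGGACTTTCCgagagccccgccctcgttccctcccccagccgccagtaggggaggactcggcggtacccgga
TAP2, chr6:32838740-32838939, minus strand: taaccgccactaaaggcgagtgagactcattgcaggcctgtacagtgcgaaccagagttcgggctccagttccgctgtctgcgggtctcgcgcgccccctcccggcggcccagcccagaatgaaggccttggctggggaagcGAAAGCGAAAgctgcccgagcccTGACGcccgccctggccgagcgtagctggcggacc
TAPBP, chr6:33314079-33314278, minus strand: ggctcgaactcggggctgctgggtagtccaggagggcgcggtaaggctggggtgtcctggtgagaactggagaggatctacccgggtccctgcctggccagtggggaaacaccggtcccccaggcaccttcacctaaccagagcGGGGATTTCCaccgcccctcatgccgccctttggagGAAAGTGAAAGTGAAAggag

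The ISRE core was found in 3.02% of 35116 RefSeq promoters over 250 bases upstream, the CCAAT box in 32%, the CRE half-site in 21.2% and the NF-kB consensus in 9.96%. HLA-F, B2M, TAP1, TAP2 and TAPBP hold an ISRE core by these letters, as overlapping pairs in B2M, TAP1 and TAPBP. The HLA-B and HLA-C windows hold none by these letters, and they hold the CRE half-site, the NF-kB consensus and several CCAAT boxes. The element TTCNNNGAA, found in 6.57% of promoters, was in none of the windows printed. It did match in the TAP1 entry that is not printed, at positions -189 to -181. A match describes the letters only.

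Read per kilobase of annotated exon, the control levels ordered the genes from HLA-C and HLA-B down to NLRC5. The lengths used cover every annotated exon, 6089 bases for B2M, 3051 for HLA-B and 2507 for HLA-C. The length of the expressed transcripts was not measured, so this order depends on the annotation. By CPM alone B2M was highest, at a mean of 325.5 in controls, above HLA-B at 250.1 and HLA-C at 233.7. HLA-C averaged 93.2 ± 10.2 and HLA-B 82.0 ± 10.8 CPM per kb (SD, n = 4), and these neighbours overlapped in their libraries. B2M followed at 53.5 ± 5.84 CPM per kb, TAPBP at 32.5 ± 1.35 and HLA-E at 24.7 ± 2.22, and these 3 did not overlap. TAP2 stood at 8.79 ± 1.04 and TAP1 at 7.71 ± 0.861 CPM per kb, with overlapping libraries. HLA-F averaged 1.11 ± 0.234 and NLRC5 0.615 ± 0.0468 CPM per kb, ranks 13321 and 15069 of 21032 tested genes. In siWT1 HLA-B reached 153 CPM per kb and HLA-C 140.5, so HLA-B stood above HLA-C there by their means.

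**Figure D1:**
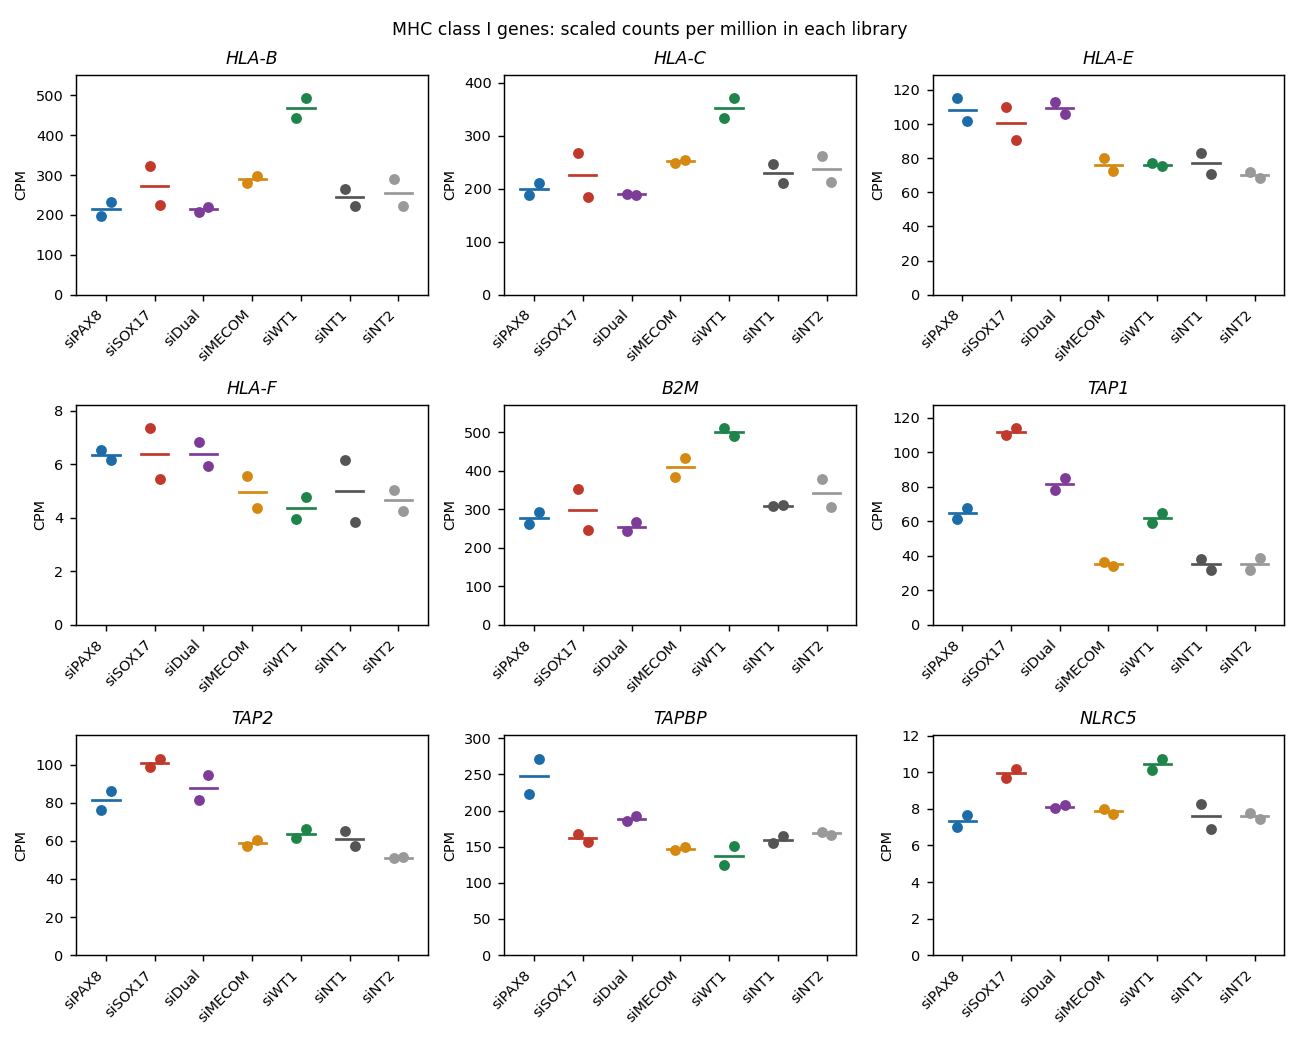
CPM of each gene in each library, with 1 panel per gene, knockdown groups left of the 2 control groups, points for libraries and bars for the mean of each group. The TAP1 points of siSOX17 sit at 110.0 and 114 CPM, against 31.9 to 39.0 CPM in the 4 control libraries.

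The genes called differed by knockdown. In siPAX8, siSOX17 and siDual the transporter genes TAP1 and TAP2 and the non-classical heavy chain HLA-E were higher than in controls, while HLA-B, HLA-C and B2M were not called higher. In siWT1 the classical heavy chains HLA-B and HLA-C, B2M, TAP1 and NLRC5 were higher and HLA-E was not called. In siMECOM only B2M was called. By the quasi-likelihood test of edgeR, adjusted over all 21032 genes by the method of Benjamini and Hochberg and used throughout, 5 of the 9 genes were higher and 0 lower in siPAX8, where 26.9% of all genes were called higher and 25.4% lower. The counts were 5 higher and 0 lower in siSOX17 (27.2% and 25.5% of all genes), and 5 higher and 2 lower in siDual (28.9% and 27.3%). They were 1 higher and 0 lower in siMECOM (16.5% and 16.1%), and 5 higher and 1 lower in siWT1 (17.7% and 19.8%). The median log2 fold change of the 9 genes was 0.40 in siPAX8, 0.39 in siSOX17, 0.20 in siDual, 0.05 in siMECOM and 0.46 in siWT1, beside medians over all tested genes of 0.00, -0.01, 0.00, 0.01 and 0.00 for the same groups. In siPAX8, HLA-B, HLA-C and B2M were called lower without the filter on low counts, giving 5 higher and 3 lower, and also without siNT2 replicate 2, giving 4 higher and 3 lower. The number of the 9 genes called was 3 in siDual without siDual replicate 1, 4 without siDual replicate 2 or siNT2 replicate 1, and 0 in siMECOM without siMECOM replicate 2, siNT1 replicate 1, siNT1 replicate 2 or siNT2 replicate 2.

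**Figure D2:**
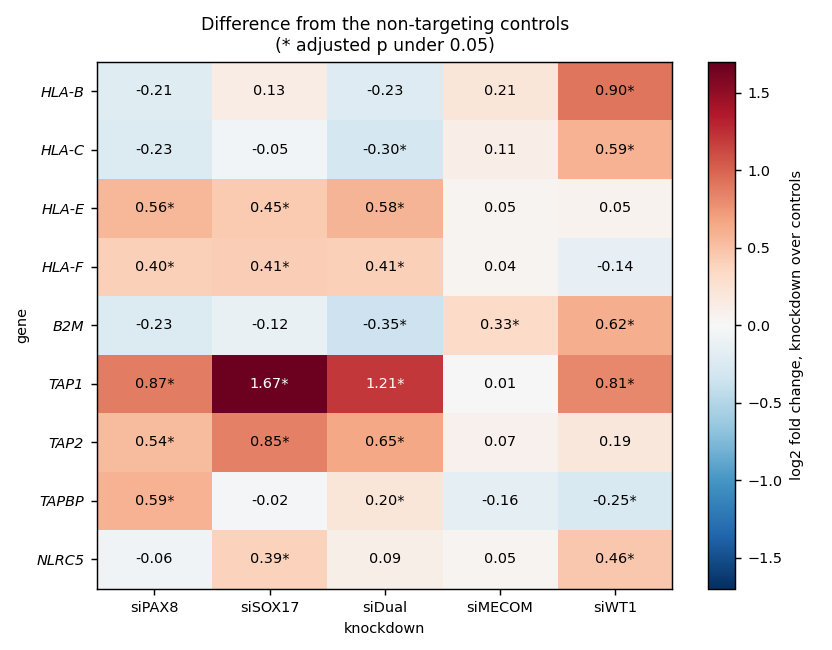
Log2 fold change of each gene (rows) in each knockdown (columns) over the mean of the controls, with red for higher and blue for lower and an asterisk for an adjusted p under 0.05. TAP1 in siSOX17 has the deepest colour, at 1.67, and the siMECOM column is pale except for B2M at 0.33.

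TAP1, a subunit of the peptide transporter, was higher in 4 of the 5 knockdowns. It stood at 110.0 and 114 CPM in siSOX17, 77.9 and 84.9 in siDual, 61.4 and 67.7 in siPAX8 and 59.2 and 64.7 in siWT1, against 38.4 and 31.9 CPM in siNT1 and 31.9 and 39.0 in siNT2. Every library of these 4 knockdowns lay above every control library, and the siMECOM libraries at 36.6 and 34.25 CPM lay among the controls. The log2 fold change was 1.67 ± 0.08 in siSOX17 (SE; adjusted p = 9.76e-12), a 3.17-fold difference. It was 1.21 ± 0.09 in siDual (adjusted p = 6.19e-10), 0.87 ± 0.09 in siPAX8 (adjusted p = 7.7e-08), and siWT1 stood at 0.81 ± 0.09 (adjusted p = 6.28e-07). In siMECOM it was 0.01 ± 0.09 (adjusted p = 0.972). These calls were kept in all 15 alternatives tried for each of the 4 knockdowns, with siSOX17 between 1.597 and 1.73. PSMB8-AS1, which overlaps TAP1 on the opposite strand, had log2 fold changes of 1.43 ± 0.09 in siSOX17 and 0.83 ± 0.09 in siWT1.

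TAP2, the partner subunit of the transporter, was higher in siPAX8, siSOX17 and siDual. It stood at 99.0 and 103 CPM in siSOX17, 81.2 and 94.3 in siDual and 76.3 and 86.1 in siPAX8, against 65.05 and 57.3 CPM in siNT1 and 50.9 and 51.3 in siNT2. These libraries all lay above the controls, by log2 fold changes of 0.85 ± 0.08 in siSOX17 (adjusted p = 1.94e-08), 0.65 ± 0.08 in siDual (adjusted p = 6.21e-07) and 0.54 ± 0.08 in siPAX8 (adjusted p = 8.25e-06). In siWT1 TAP2 stood at 61.4 and 66.25 CPM, which overlapped the controls, and its log2 fold change of 0.19 ± 0.08 missed the threshold (adjusted p = 0.0612). In siMECOM it stood at 57.5 and 60.2 CPM, also among the controls, at 0.07 ± 0.08 (adjusted p = 0.512). The siWT1 value passed in 6 of the 15 alternatives tried, and all 15 lay between 0.06 and 0.32. Among those that passed were the fit without siNT1 replicate 1, at 0.24, and the replicate number as a block, at 0.19 (adjusted p = 0.0424). The control pools differed most at TAP2, by 0.26 ± 0.09 for siNT1 over siNT2, and this was not called (adjusted p = 0.423). AL669918.1, which shares exon bases with TAP2, had log2 fold changes of 0.87 ± 0.08 in siSOX17 and 0.26 ± 0.08 in siWT1.

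TAPBP, which encodes tapasin, followed another order and was highest in siPAX8. It stood at 223 and 272 CPM in siPAX8, 185 and 193 in siDual, 167 and 157 in siSOX17, 145 and 149 in siMECOM and 124.5 and 150.5 in siWT1, against 154.5 and 165 CPM in siNT1 and 171 and 166 in siNT2. The siPAX8 and siDual libraries lay above all controls, the siMECOM and siWT1 libraries below all controls, and the siSOX17 libraries among them. The log2 fold change was 0.59 ± 0.08 in siPAX8 (adjusted p = 5.74e-06). It was 0.20 ± 0.08 in siDual (adjusted p = 0.0461) and -0.25 ± 0.09 in siWT1 (adjusted p = 0.0238). It was -0.02 ± 0.08 in siSOX17 (adjusted p = 0.881) and -0.16 ± 0.08 in siMECOM (adjusted p = 0.172). Of 15 alternatives, 9 lost the siDual call. The siDual call was lost when any library of siDual or of the controls was left out, with values of 0.17 to 0.23 and adjusted p of 0.0521 to 0.231. The siWT1 call was lost without siWT1 replicate 1, at -0.13 (adjusted p = 0.374), and without siNT1 replicate 2, at -0.23 (adjusted p = 0.0681), and the value was -0.40 without siWT1 replicate 2.

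HLA-B, a classical heavy chain that presents peptides to CD8 T cells, was higher in siWT1. It stood at 443 and 493 CPM in siWT1, against 266 and 223 CPM in siNT1 and 289 and 222.5 in siNT2, and no control library reached the siWT1 range. The log2 fold change was 0.90 ± 0.12 (adjusted p = 6.92e-06), a 1.87-fold difference. Elsewhere HLA-B stood at 199 and 233 CPM in siPAX8, 322 and 225 in siSOX17, 208 and 219.7 in siDual and 279.8 and 299 in siMECOM. None of these was called, with log2 fold changes of -0.21 ± 0.12 in siPAX8, 0.13 ± 0.12 in siSOX17, -0.23 ± 0.12 in siDual and 0.21 ± 0.12 in siMECOM. Without siNT2 replicate 2 the values of -0.30 in siPAX8 (adjusted p = 0.0446) and -0.34 in siDual (adjusted p = 0.0221) passed.

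HLA-C, the other classical heavy chain measured here and also a ligand of NK cell receptors, was likewise higher in siWT1. It stood at 334 and 371 CPM in siWT1, against 247.5 and 212 CPM in siNT1 and 263 and 213 in siNT2, without overlap, and its log2 fold change was 0.59 ± 0.11 (adjusted p = 0.000335). In siDual it fell, at 190.1 and 189 CPM, by a log2 fold change of -0.30 ± 0.12 (adjusted p = 0.0319). That call was lost without siDual replicate 1 (-0.31, adjusted p = 0.112), siDual replicate 2 (-0.30, 0.13), siNT1 replicate 1 (-0.25, 0.102) or siNT2 replicate 1 (-0.23, 0.109). In siPAX8 HLA-C stood at 188 and 210.4 CPM, below all controls but not called (log2 fold change -0.23 ± 0.12, adjusted p = 0.101), and without siNT2 replicate 2 it was -0.30 (adjusted p = 0.0361). In siMECOM it stood at 249 and 255 CPM, at 0.11 ± 0.11, and was not called.

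B2M, the light chain shared by all class I molecules, was higher in siWT1 and siMECOM and lower in siDual. It stood at 509.6 and 490.5 CPM in siWT1 and 383 and 434 in siMECOM, against 308 and 311 CPM in siNT1 and 379 and 305 in siNT2. Both knockdowns lay above all controls, siMECOM by a narrow margin over siNT2 replicate 1. The log2 fold change was 0.62 ± 0.11 in siWT1 (adjusted p = 0.000182) and 0.33 ± 0.11 in siMECOM (adjusted p = 0.0284). The siMECOM call was lost without siMECOM replicate 2 (0.23, adjusted p = 0.281), siNT1 replicate 1 (0.32, 0.0643), siNT1 replicate 2 (0.33, 0.0582) or siNT2 replicate 2 (0.23, 0.143). In siDual B2M stood at 243 and 267 CPM and fell by a log2 fold change of -0.35 ± 0.11 (adjusted p = 0.0135), which was lost without siDual replicate 1 (-0.29, 0.132) or siNT2 replicate 1 (-0.27, 0.0514). In siPAX8 it stood at 261 and 293 CPM, at -0.23 ± 0.11 (adjusted p = 0.094), and without siNT2 replicate 2 at -0.31 (adjusted p = 0.0313).

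The siSOX17 libraries differed from each other at these 3 genes. Replicate 1 exceeded replicate 2 by 0.52 on the log2 CPM scale for HLA-B, 0.53 for HLA-C and 0.52 for B2M, but by -0.05 for TAP1 and -0.06 for TAP2. HLA-C stood at 267 and 185 CPM and B2M at 352 and 245 CPM in siSOX17, on either side of most control libraries. The log2 fold changes of -0.05 ± 0.11 for HLA-C and -0.12 ± 0.11 for B2M were not called. Without siSOX17 replicate 1 HLA-C was -0.34 (adjusted p = 0.0263) and B2M -0.41 (adjusted p = 0.00801), and without siSOX17 replicate 2 HLA-B was 0.37 (adjusted p = 0.0252). No direction can be read for these 3 genes in siSOX17.

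HLA-E, a non-classical heavy chain that presents leader peptides to the NKG2A receptor of NK cells, was higher in siPAX8, siSOX17 and siDual. It stood at 115 and 102 CPM in siPAX8, 109.8 and 90.9 in siSOX17 and 113 and 106 in siDual, against 83.2 and 70.7 CPM in siNT1 and 71.9 and 68.4 in siNT2. The 6 knockdown libraries all lay above the 4 controls, by log2 fold changes of 0.56 ± 0.09 in siPAX8 (adjusted p = 1.59e-05), 0.45 ± 0.09 in siSOX17 (adjusted p = 0.000188) and 0.58 ± 0.09 in siDual (adjusted p = 9.84e-06). In siMECOM it stood at 80.2 and 72.2 CPM and in siWT1 at 77.1 and 75.5, among the controls, and neither 0.05 ± 0.09 was called. HLA-F, another non-classical heavy chain, was low throughout. It stood at 6.54 and 6.17 CPM in siPAX8, 7.34 and 5.44 in siSOX17 and 6.84 and 5.94 in siDual, against 6.15 and 3.83 CPM in siNT1 and 5.03 and 4.27 in siNT2. The siSOX17 and siDual libraries overlapped the controls. In siMECOM it stood at 5.55 and 4.36 CPM and in siWT1 at 3.94 and 4.77, also overlapping, and the values of 0.04 ± 0.17 in siMECOM and -0.14 ± 0.17 in siWT1 were not called. The log2 fold changes of HLA-F, 0.40 ± 0.17 in siPAX8 (adjusted p = 0.049), 0.41 ± 0.17 in siSOX17 (0.0475) and 0.41 ± 0.17 in siDual (0.0463), lay just past the threshold. Each was lost without siNT1 replicate 2, at 0.25 (adjusted p = 0.205), 0.26 (0.189) and 0.25 (0.192) for these groups, and without siNT2 replicate 2, at 0.35 (0.113), 0.34 (0.126) and 0.33 (0.135). They were also lost without siPAX8 replicate 1 (0.36, 0.203) or 2 (0.45, 0.103), siSOX17 replicate 1 (0.18, 0.54), and siDual replicate 1 (0.30, 0.275) or 2 (0.51, 0.0671). Summed over HLA-B, HLA-C, HLA-E and HLA-F, the level was 858 and 944 CPM in siWT1, 508 and 551 in siPAX8, 706 and 506.5 in siSOX17, 518 and 520.4 in siDual and 614.5 and 630.3 in siMECOM, against 603 and 509 CPM in siNT1 and 629 and 508 in siNT2. As a sum the group was called in siWT1 (log2 fold change 0.68, adjusted p = 5.82e-05). For HLA-F by itself, the call was lost in 7 of 15 alternatives in siPAX8, 6 of 15 in siSOX17 and 7 of 15 in siDual.

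NLRC5, the class I transactivator, was low and differed in 2 groups. It stood at 10.15 and 10.8 CPM in siWT1 and 9.68 and 10.2 in siSOX17, against 8.30 and 6.92 CPM in siNT1 and 7.795 and 7.46 in siNT2. Both knockdowns lay above all controls, by 0.46 ± 0.10 in siWT1 (adjusted p = 0.000921) and 0.39 ± 0.10 in siSOX17 (adjusted p = 0.0029) on the log2 scale, and these calls were kept in all 15 alternatives. In siPAX8 it stood at 6.99 and 7.64 CPM, in siDual at 8.04 and 8.21 and in siMECOM at 8.01 and 7.735, all overlapping the controls. The log2 fold changes of -0.06 ± 0.10, 0.09 ± 0.10 and 0.05 ± 0.10 were not called.

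The knockdowns were then compared with each other, since each was set against the same 4 control libraries. Against siSOX17, siWT1 had 3 genes higher and 5 lower, where 57.8% of all genes were called. HLA-B differed by 0.78 ± 0.14 on the log2 scale (adjusted p = 0.000111), B2M by 0.74 ± 0.13 (adjusted p = 7.23e-05) and HLA-C by 0.64 ± 0.13 (adjusted p = 0.000376), all higher in siWT1. Without siSOX17 replicate 2 these values were 0.54, 0.50 and 0.40, and without siSOX17 replicate 1 they were 1.05, 1.02 and 0.93, all still called. TAP1 differed by -0.85 ± 0.10 (adjusted p = 7.54e-07) and TAP2 by -0.66 ± 0.09 (adjusted p = 4.1e-06), lower in siWT1, and HLA-E by -0.40 ± 0.10 (adjusted p = 0.00226). The lower values of HLA-F (-0.55 ± 0.20, adjusted p = 0.0219) and TAPBP (-0.24 ± 0.10, 0.0441) were lost, with HLA-E, when siSOX17 replicate 1 was left out, at -0.32 (0.274), -0.19 (0.192) and -0.26 (0.0692), which left 5 genes called. HLA-F was also lost without siWT1 replicate 1 (-0.43, 0.154), and TAPBP without siSOX17 replicate 2 (-0.28, 0.0553) or siWT1 replicate 1 (-0.11, 0.419), and TAPBP was -0.38 without siWT1 replicate 2. NLRC5 differed by 0.07 ± 0.11, not called.

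Against siSOX17, siMECOM had 1 gene higher and 4 lower, where 48.4% of all genes were called. TAP1 differed by -1.66 ± 0.10 (adjusted p = 2.11e-10) and TAP2 by -0.78 ± 0.09 (adjusted p = 8.53e-07), both lower in siMECOM. HLA-E was lower by -0.40 ± 0.10 (adjusted p = 0.0028), NLRC5 by -0.34 ± 0.12 (0.0209), and B2M was higher by 0.45 ± 0.13 (0.00735). HLA-E was lost without siSOX17 replicate 1 (-0.26, 0.0771). B2M was lost without siSOX17 replicate 2 (0.21, 0.195) or siMECOM replicate 2 (0.36, 0.0765), and was 0.73 without siSOX17 replicate 1. NLRC5 was lost without siSOX17 replicate 2 (-0.30, 0.106), siMECOM replicate 1 (-0.37, 0.056) or siMECOM replicate 2 (-0.31, 0.107). Without siMECOM replicate 2 the count was 3.

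Against siSOX17, siPAX8 had 1 gene higher and 3 lower, where 37.3% of all genes were called. TAPBP was higher in siPAX8 by 0.61 ± 0.10 (adjusted p = 5.59e-05), while TAP1 (-0.79 ± 0.10, 4.48e-06), TAP2 (-0.32 ± 0.09, 0.00929) and NLRC5 (-0.44 ± 0.12, 0.00514) were lower. TAP2 was lost without siPAX8 replicate 1 (-0.24, 0.113) or siSOX17 replicate 2 (-0.29, 0.0591), and NLRC5 without siPAX8 replicate 1 (-0.38, 0.0555), which left 2 genes called. HLA-E differed by 0.11 ± 0.10, which was not called.

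With both reagents, TAP1 was higher and TAPBP lower than with the PAX8 reagent alone. In siDual against siPAX8, where 19.6% of all genes were called, TAP1 was higher by 0.33 ± 0.10 (adjusted p = 0.0248) and TAPBP lower by -0.39 ± 0.10 (adjusted p = 0.00696). TAP1 was lost without siPAX8 replicate 1 or siDual replicate 2, at 0.27 each (0.179 and 0.183), and TAPBP without siPAX8 replicate 2 (-0.25, 0.151) or siDual replicate 1 (-0.36, 0.0669), so that 1 gene was called in each case. In siDual against siSOX17, where 15.7% of all genes were called, TAP1 was lower by -0.46 ± 0.10 (adjusted p = 0.00364), and 0 genes were higher. TAP1 was lost without siDual replicate 1 (-0.40, 0.0502), and without siSOX17 replicate 2 the count was 4, with HLA-B (-0.59), HLA-C (-0.50) and B2M (-0.47) lower in siDual.

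On the log2 scale the siDual values of the transporter genes lay below the sum of the single knockdowns. The test was siDual minus siPAX8 minus siSOX17 plus the controls, and it called 0 of the 9 genes above the sum and 4 below, where 25.1% of all genes were called. For TAP1 the single values were 0.87 in siPAX8 and 1.67 in siSOX17, the sum was 2.54, and siDual stood at 1.21, a difference of -1.33 ± 0.13 (adjusted p = 6.83e-07). For TAP2 the sum was 1.39, siDual stood at 0.65, and the difference was -0.74 ± 0.12 (adjusted p = 0.00012). For HLA-E the sum was 1.01 and siDual stood at 0.58, a difference of -0.43 ± 0.13 (adjusted p = 0.0199). For TAPBP the sum was 0.58 and siDual stood at 0.20, a difference of -0.37 ± 0.13 (adjusted p = 0.0389). HLA-E was lost without siPAX8 replicate 1 (-0.34, 0.112), siSOX17 replicate 1 (-0.29, 0.151) or siDual replicate 2 (-0.39, 0.0904). TAPBP was lost without siPAX8 replicate 2 (-0.23, 0.253), siSOX17 replicate 1 (-0.33, 0.126), siDual replicate 1 (-0.34, 0.125), siDual replicate 2 (-0.40, 0.071) or siNT1 replicate 1 (-0.35, 0.0769). Without siSOX17 replicate 1 or siDual replicate 2 the count was 2. The labels do not give the dose of each reagent within siDual, so dose and combination cannot be told apart. PAX8 itself was less reduced in siDual than in siPAX8, and the part of this in the differences was not tested.

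**Figure D3:**
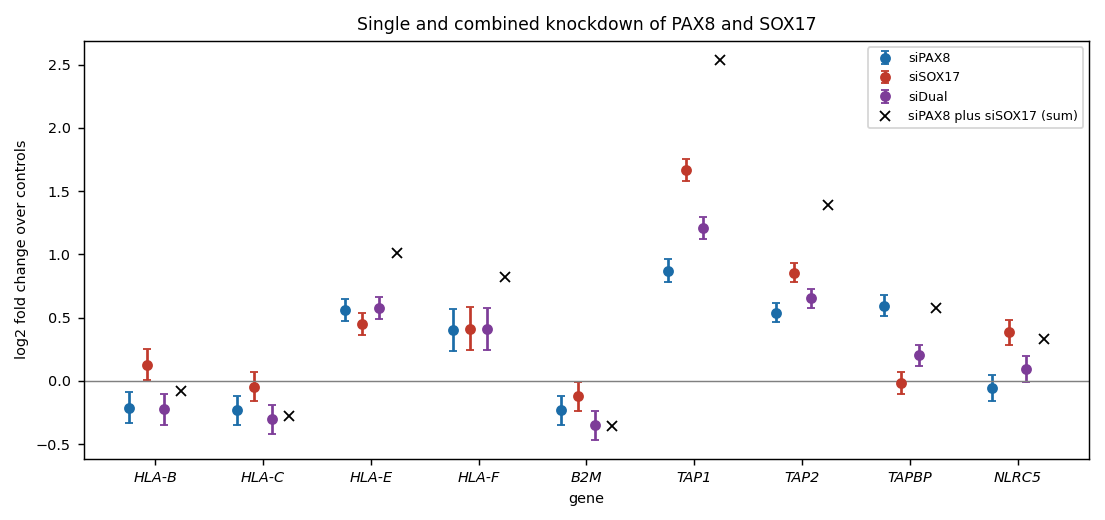
Log2 fold change over controls of each gene in siPAX8, siSOX17 and siDual (points with SE bars) beside the sum of the single knockdowns (crosses). The TAP1 cross sits at 2.54, above the siDual point at 1.21, and the B2M cross at -0.35 coincides with its siDual point.

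The control pools were also set against each other. Of the 9, 0 were called between siNT1 and siNT2 by edgeR and 0 by DESeq2, 1 had an unadjusted p under 0.05, and 0.3% of all genes were called.

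The immunoproteasome, whose inducible subunits replace constitutive ones, cuts peptides suited to class I. In siWT1, where HLA-B, HLA-C, B2M, TAP1 and NLRC5 were higher and TAPBP was lower, most immunoproteasome genes were called higher. Of its 5 genes with PA28, 4 were higher and 0 lower in siWT1 (median log2 fold change 0.45, all genes 0.00): PSMB9 by 0.86 ± 0.15 (adjusted p = 0.000115), PSMB8 by 0.85 ± 0.08 and PSMB10 by 0.45 ± 0.10, with PSME1, a PA28 subunit, at 0.25 ± 0.08. PSMB9, which lies beside TAP1, stood at 9.545 and 13.2 CPM in siWT1 and 11.0 and 9.285 in siSOX17, against 5.39 to 7.77 CPM in controls, with no overlap. In siSOX17 2 were higher and 0 lower, PSMB9 by 0.70 ± 0.15 and PSMB8 by 0.29 ± 0.09. In siPAX8 0 were higher and 2 lower, PSMB10 by -0.36 ± 0.11 and PSME2 by -0.25 ± 0.08, and in siDual and siMECOM 0 were higher and 1 lower. The 4 of 5 higher in siWT1 (80.0%) stand beside 17.7% of all genes. The 1 or 2 of 5 called in the other groups (20.0 or 40.0%) stand beside 16.1 to 27.3% of all genes. A list of 5 genes is too small to set apart from these shares in any group. Of 10 constitutive proteasome genes, 6 were higher and 1 lower in siSOX17, beside 27.2% and 25.5% of all genes. In siWT1 1 was higher and 1 lower, beside 17.7% and 19.8%. In siPAX8 those lower were led by PSMA1 (-0.32 ± 0.07), PSME3 (-0.30 ± 0.07) and PSMA3 (-0.26 ± 0.07), and only PSMB5 (0.25 ± 0.07) was higher. Of all genes, 25.4% were called lower and 26.9% higher in siPAX8. PSMB9 was -0.27 ± 0.16 in siPAX8, where TAP1 was higher, and was not called.

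**Figure D4:**
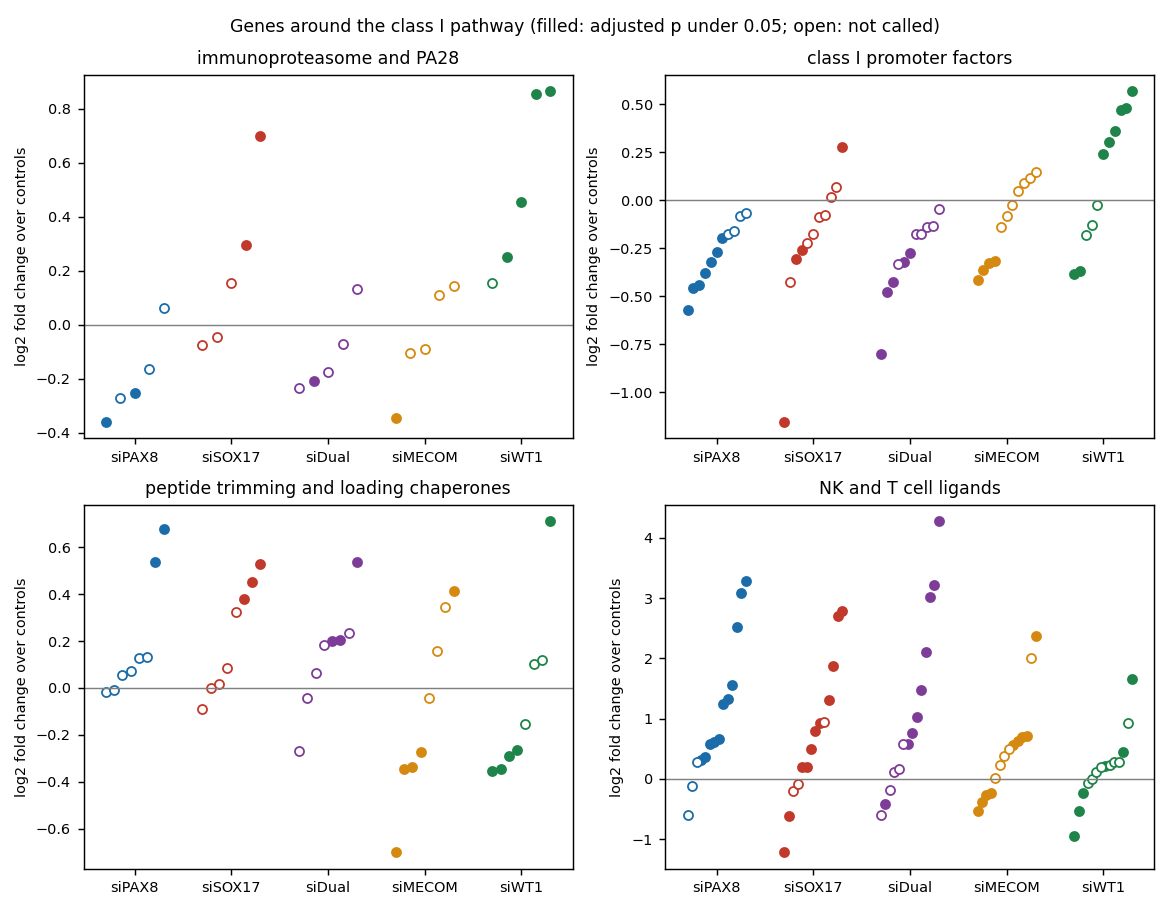
Log2 fold change over controls of each gene in 4 lists around the class I pathway, by knockdown, with filled points for an adjusted p under 0.05 and open points for the rest. In siWT1 the immunoproteasome points are all above 0, up to 0.86, while in siPAX8 the promoter factor points are all below 0, down to -0.57.

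Among factors that bind class I promoters, more were called higher than lower in siWT1, and more lower than higher in the other knockdowns. Of 11 such factors, 6 were higher and 2 lower in siWT1 (median 0.24), including NFYA (0.57 ± 0.08), RFXAP (0.48 ± 0.15), IRF1 (0.47 ± 0.07), IRF2 (0.36 ± 0.09) and RFX5 (0.30 ± 0.07), with NFYB (-0.38 ± 0.12) and CREB1 (-0.37 ± 0.07) lower. IRF1, a transcription factor induced by interferon, stood at 35.9 and 37.8 CPM in siWT1, against 24.99 to 29.9 CPM in controls. In siPAX8 0 were higher and 7 lower (median -0.27), led by NFYB (-0.57 ± 0.12), RFXAP (-0.46 ± 0.17) and RFX5 (-0.44 ± 0.07), and IRF1 was -0.08 ± 0.08, not called. In siSOX17 1 was higher, IRF1 at 0.28 ± 0.08, and 3 lower, led by NFYB (-1.15 ± 0.13), in siDual 0 and 5, and in siMECOM 0 and 4. RFX5 was lower in all 4 of these groups, by -0.26 ± 0.07 in siSOX17, -0.42 ± 0.07 in siDual and -0.41 ± 0.07 in siMECOM, and RFXANK was lower in siMECOM (-0.33 ± 0.08). The share lower was 63.6% in siPAX8, 45.5% in siDual, 36.4% in siMECOM and 27.3% in siSOX17, beside 25.4%, 27.3%, 16.1% and 25.5% of all genes, so the siSOX17 share is near that of all genes. The share higher in siWT1 was 54.5%, beside 17.7% of all genes. Whether the factors bear on the class I genes was not tested.

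Of genes for peptide trimming and loading chaperones, 8 were tested. Of these, 2 were higher and 0 lower in siPAX8, LNPEP (0.68 ± 0.12) and the chaperone HSPA5 (0.54 ± 0.07). In siSOX17 3 were higher and 0 lower, led by ERAP1 (0.53 ± 0.06), the aminopeptidase that trims peptides in the endoplasmic reticulum, and in siDual 3 and 0. In siMECOM 1 was higher, ERAP1 (0.41 ± 0.07), and 4 lower, led by CANX (-0.70 ± 0.08), the chaperone calnexin. In siWT1 1 was higher, TAPBPL (0.71 ± 0.13), a tapasin-related editor of class I peptides, and 4 lower, including CALR (-0.35 ± 0.08). The share higher was 25% in siPAX8 and 37.5% in siSOX17 and siDual, near the 26.9%, 27.2% and 28.9% of all genes. The share lower in siMECOM and siWT1 was 50%, beside 16.1% and 19.8% of all genes.

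Interferon transcripts were near the detection floor: 0 of 8 interferon genes passed the filter, and over the 14 libraries IFNE had 48 counts (8 at most in a library), IFNA1 10, IFNB1 7, IFNL1 2 and the other 4 genes 0. Of 14 interferon receptor and signalling genes, 8 were higher and 3 lower in siPAX8, 8 and 3 in siSOX17, 8 and 4 in siDual, 4 and 3 in siMECOM and 3 and 2 in siWT1, with IFNAR2 (0.77 ± 0.08) and IFNGR2 (0.74 ± 0.07) in siSOX17 and TYK2 lower in siPAX8 (-0.98 ± 0.09). The share higher was 57.1% in siPAX8, siSOX17 and siDual, 28.6% in siMECOM and 21.4% in siWT1, beside 26.9%, 27.2%, 28.9%, 16.5% and 17.7% of all genes. Of 33 interferon-stimulated genes, 18 were higher and 5 lower in siMECOM, a share of 54.5% higher beside 16.5% of all genes. In siWT1 6 were higher and 6 lower, 18.2% each beside 17.7% and 19.8% of all genes, and in siPAX8 11 and 9, or 33.3% and 27.3% beside 26.9% and 25.4%, both near the shares of all genes. The counts were 15 and 6 in siSOX17, or 45.5% and 18.2% beside 27.2% and 25.5% of all genes. They were 12 and 14 in siDual, or 36.4% and 42.4% beside 28.9% and 27.3%. SAMD9L (1.90 ± 0.12) and GBP1 (1.49 ± 0.07) rose in siSOX17 while GBP5 fell (-4.79 ± 0.21), and SAMD9L (1.11 ± 0.13) and OAS1 (1.07 ± 0.12) rose in siMECOM.

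Of 14 ligands seen by NK and T cells that were tested, 11 were higher and 0 lower in siPAX8, 9 and 2 in siSOX17, 8 and 1 in siDual, 5 and 4 in siMECOM and 3 and 3 in siWT1. The share higher was 78.6% in siPAX8, 64.3% in siSOX17 and 57.1% in siDual, beside 26.9%, 27.2% and 28.9% of all genes. It was 35.7% in siMECOM and 21.4% in siWT1, beside 16.5% and 17.7%, so the siWT1 share is near that of all genes. CD274, which encodes the checkpoint ligand PD-L1, stood at 9.875 and 11.85 CPM in siPAX8, 6.59 and 11.25 in siSOX17 and 9.90 and 13.8 in siDual, against 1.08 to 1.56 CPM in controls. Its log2 fold change was 3.08 ± 0.19 in siPAX8, 2.79 ± 0.19 in siSOX17 and 3.21 ± 0.19 in siDual, with 0.71 ± 0.23 in siMECOM. PDCD1LG2, the related ligand PD-L2, rose by 2.52 ± 0.14 in siPAX8, 2.71 ± 0.14 in siSOX17 and 3.02 ± 0.14 in siDual. ULBP2, a ligand of the NKG2D receptor, rose by 1.55 ± 0.13, 1.86 ± 0.13 and 2.10 ± 0.13 in siPAX8, siSOX17 and siDual, and fell in siWT1 (-0.53 ± 0.16). NCR3LG1, a ligand of the NKp30 receptor, rose in siWT1 (1.66 ± 0.19) and siPAX8 (1.32 ± 0.20) and fell in siSOX17 (-1.22 ± 0.29).

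Genes related to class I by descent or by turnover were mixed. Of all genes, 26.9% were called higher and 25.4% lower in siPAX8, 27.2% and 25.5% in siSOX17, and 28.9% and 27.3% in siDual. The shares were 16.5% and 16.1% in siMECOM and 17.7% and 19.8% in siWT1. Each of the 3 lists here holds 5 or 6 tested genes, too few to set apart from these shares. Of 5 class I-like genes tested, 2 were higher and 0 lower in siPAX8, 2 and 1 in siSOX17, 2 and 2 in siDual, 1 and 0 in siMECOM and 3 and 1 in siWT1. MR1, which presents metabolites to T cells, rose in every knockdown, by 1.85 ± 0.09 in siPAX8, 0.89 ± 0.09 in siSOX17, 1.59 ± 0.09 in siDual, 0.77 ± 0.09 in siMECOM and 0.39 ± 0.09 in siWT1. HLA-G (0.94 ± 0.19) and the pseudogene HLA-H (0.92 ± 0.15) rose in siWT1, and both resemble the heavy chains closely enough that their counts are uncertain. Of 6 genes of class I surface turnover, 3 were higher and 0 lower in siPAX8, 2 and 1 in siSOX17, 3 and 0 in siDual, 1 and 1 in siMECOM and 1 and 3 in siWT1. TMEM127 rose by 0.67 ± 0.06 in siPAX8, 0.49 ± 0.06 in siSOX17 and 0.69 ± 0.06 in siDual and fell in siWT1 (-0.18 ± 0.06), with SPPL3 (-0.23 ± 0.07) and WWP2 (-0.55 ± 0.08). MARCH9 was higher in siPAX8 (0.64 ± 0.09), siWT1 (0.45 ± 0.09) and siDual (0.40 ± 0.09). MARCH4, called higher in every group but siWT1, stayed near the detection floor, at 0.0220 to 0.765 CPM in those 4 groups and 0 to 0.0391 CPM in controls. Of 10 class II genes 6 were tested, with 3 higher and 1 lower in siPAX8, 2 and 0 in siSOX17, 1 and 1 in siDual, 2 and 1 in siMECOM and 2 and 1 in siWT1. HLA-DMB was the gene called lower each time, by -1.41 ± 0.13 in siPAX8, -0.76 ± 0.13 in siDual, -1.34 ± 0.13 in siMECOM and -0.58 ± 0.12 in siWT1, and it was higher in siSOX17 (0.52 ± 0.11). Those higher in siPAX8 were CIITA (0.45 ± 0.10), HLA-DMA (0.42 ± 0.17) and HLA-DPB1 (0.59 ± 0.23).

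Within the set, correlations across the 14 libraries were high for some pairs and near 0 or negative for others. The correlation of log2 CPM was 0.977 for HLA-B with HLA-C, 0.942 for HLA-C with B2M, 0.917 for HLA-B with B2M, 0.924 for TAP1 with TAP2 and 0.871 for HLA-E with HLA-F. B2M with TAPBP gave -0.622 and HLA-B with TAP1 -0.027. These are descriptions over libraries that share groups and scaling. Among 11910 protein-coding genes, those most like TAP1 were NEDD4L (r = 0.979), ZNFX1 (0.970), SLC44A3 (0.961), NACC2 (0.961) and RNF43 (0.961), over 14 libraries. Those most like NLRC5 were FAM83G (0.896), OGFR (0.892), ZNF335 (0.890), FASTKD5 (0.886) and GRK4 (0.881), with PSMB9 at rank 10 (0.851) and IRF1 at rank 25 (0.816). The mean of the 9 genes was most like EMC10 (0.897), AC023509.3 (0.881), YOD1 (0.879), ZC3HAV1 (0.877) and PPP1R15A (0.862). PSMB9 and IRF1 ranked far lower for the other patterns. For TAP1 they stood at ranks 3524 (0.395) and 3960 (0.323), and for the mean of the 9 genes at ranks 1006 (0.545) and 1166 (0.521).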

How the data were processed

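RNA of 14 OVCAR4 libraries was sequenced with a BGI protocol, per the labels' protocols. The authors deposited raw counts, integers for every gene on hg38; the submitters' processing notes name STAR 2.5.1b and featureCounts 1.6.3. Which annotation release and which strand setting they ran with is not given in the sources used here. Of 58219 genes, 57881 matched GENCODE 29 by identifier, which gave the names. The authors' length column was used only for CPM per kilobase.

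A filter on low counts (edgeR 4.0.16, filterByExpr, min.count 10 and min.total.count 15) kept 21032 genes, among them all 9 class I genes. TMM factors scaled the library sizes, and CPM used those scaled sizes. A single quasi-likelihood fit held 7 groups, leaving 7 residual degrees of freedom, and its biological coefficient of variation was 7.57%. Contrasts set every knockdown against the average of both control pools. Benjamini-Hochberg adjustment ran over all genes tested, with calls at adjusted p below 0.05. Dividing the log2 fold change by the square root of F gave its standard error (SE). Alternatives were DESeq2 1.42.0, its size factors in edgeR, no filter, a CPM of at least 1 in 2 libraries, the replicate number as a block, only the groups compared, mitochondrially encoded genes left out, either control pool alone, each library left out, and the 4 HLA genes summed.

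The 9 genes, the lists and the tests were chosen with earlier results of these data known. All 9 genes are named in every comparison, apart from some that were not called. From each other list at most 3 called increases and 3 called decreases were named per knockdown, with IRF1, IRF2, RFX5, RFXAP and RFXANK, and fewer are named in places. One further gene of this rule is not reported here. Genes most like a pattern were ranked by Pearson correlation of log2 CPM (prior count 2) with no test. Tables and figures were made with Python and matplotlib.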

Additional observations from a re-analysis of the deposited data

Results flagged for a closer look

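In 4 genes the siDual value differed from the sum of the single knockdowns by a test of that difference (edgeR's quasi-likelihood test, adjusted over all genes). The differences on the log2 scale were -1.33 ± 0.13 for TAP1 (SE; adjusted p = 6.83e-07), -0.74 ± 0.12 for TAP2 (adjusted p = 0.00012), -0.43 ± 0.13 for HLA-E (adjusted p = 0.0199) and -0.37 ± 0.13 for TAPBP (adjusted p = 0.0389).

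Among the 4 control libraries, B2M stood apart in siNT2 replicate 1, at 378.7 CPM beside 305 to 311 CPM in the other control libraries. Chance flags about 1 in 20 such groups, and 9 genes were looked at. Without that library B2M was -0.27 in siDual (adjusted p = 0.0514) and remained called in siMECOM.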

How the results depend on the processing

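Over 1488 recalculations of 108 log2 fold changes, 1271 kept direction and side of the threshold, 81 lost the call, 34 gained it and 102 changed sign. These totals include the sum of the 4 HLA genes, entered under each of the 4 symbols, and such entries are not changes of single genes. The TAP1, TAP2 and HLA-E calls in siPAX8, siSOX17 and siDual and the HLA-B, HLA-C, B2M, TAP1 and NLRC5 calls in siWT1 kept direction and call under every alternative run on single genes. With the HLA genes summed, no HLA gene was tested by itself. The number of genes called was 8 in siPAX8 and 4 in siDual against siSOX17 without a filter, 4 in siDual with siNT1 alone, 0 in siMECOM with siNT2 alone, and 2 in siDual against siSOX17 with only the groups compared. Leaving out each library in turn gave 4 to 7 genes in siPAX8, 4 to 6 in siSOX17, 5 to 7 in siWT1, 3 to 6 in siDual, 0 to 1 in siMECOM, 1 in siDual against siPAX8, 0 to 4 in siDual against siSOX17, 2 to 6 in siPAX8 against siSOX17, 3 to 5 in siMECOM against siSOX17, 5 to 8 in siWT1 against siSOX17 and 2 to 4 in the additivity comparison. Where 1 library of a group was left out, the lone library was assumed to vary like the other groups. With the replicate number as a block, TAP2 in siWT1 was called at 0.19 (adjusted p = 0.0424) and no other of these calls changed; the labels state no pairing, and deviations of same-numbered libraries correlated at -0.018 to 0.161 over 21 group pairs, with 7 above 0.1. Alternatives other than leaving out a library or summing the HLA genes moved the median of all genes by at most 0.032. The causes of these changes were not tested.

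Sign changes were as follows. With a filter of CPM of at least 1 in 2 libraries the value was B2M -0.0042 in the additivity comparison. With DESeq2 the value was TAP1 -0.011 in siMECOM, B2M -0.0027 in the additivity comparison. With DESeq2 size factors the value was TAP1 -0.010 in siMECOM, B2M -0.0027 in the additivity comparison. With the counts of the 4 HLA genes summed there was 1 value, that of the sum, and none for the single genes. The sum had the sign opposite to HLA-E and HLA-F in siPAX8 (-0.086) and siDual (-0.11), to HLA-C in siSOX17 (0.11) and to HLA-F in siWT1 (0.68). It was opposite to HLA-E and HLA-F in siDual against siPAX8 (-0.028), siMECOM against siSOX17 (0.038) and siWT1 against siSOX17 (0.57). The same held for siNT1 against siNT2 (-0.032). It was opposite to HLA-E in siDual against siSOX17 (-0.22) and siPAX8 against siSOX17 (-0.20). Without a filter the value was TAP1 -0.034 in siMECOM, HLA-E -0.016 and HLA-F -0.028 in siDual against siPAX8, HLA-F 0.0071 in siPAX8 against siSOX17, B2M -0.0087 in the additivity comparison. With only the groups compared the value was HLA-E -0.0099 and HLA-F -0.022 in siDual against siPAX8, HLA-F 0.0080 in siPAX8 against siSOX17, B2M -0.0035 in the additivity comparison. With the replicate number as a block the value was HLA-F 0.0055 in siDual against siSOX17. With siNT1 alone the value was TAPBP 0.020 in siSOX17, HLA-E -0.014, HLA-F -0.0030, TAP2 -0.055 in siMECOM, HLA-E -0.012 in siWT1, B2M -0.067 in the additivity comparison. With siNT2 alone the value was HLA-C 0.0016 in the additivity comparison. Without mitochondrially encoded genes the value was TAP1 -0.017 in siMECOM, HLA-E -0.0088 and HLA-F -0.021 in siDual against siPAX8, HLA-F 0.0076 in siPAX8 against siSOX17, B2M -0.0063 in the additivity comparison. Leaving out each library in turn gave values on both sides of 0 in siPAX8 for NLRC5 -0.12 to 0.0066. In siSOX17 the ranges were HLA-B -0.15 to 0.37, HLA-C -0.34 to 0.19, B2M -0.41 to 0.12, TAPBP -0.063 to 0.028. In siMECOM the ranges were HLA-E -0.028 to 0.12, HLA-F -0.14 to 0.22, TAP1 -0.066 to 0.072, NLRC5 -0.018 to 0.11. In siWT1 the ranges were HLA-E -0.0043 to 0.11, HLA-F -0.30 to 0.042. In siDual against siPAX8 the ranges were HLA-B -0.12 to 0.10, HLA-C -0.15 to 0.0096, HLA-E -0.076 to 0.11, HLA-F -0.099 to 0.11. In siDual against siSOX17 the ranges were HLA-C -0.50 to 0.030, HLA-E -0.0068 to 0.27, HLA-F -0.21 to 0.23, B2M -0.47 to 0.052. In siPAX8 against siSOX17 the ranges were HLA-C -0.43 to 0.10, HLA-E -0.023 to 0.25, HLA-F -0.21 to 0.22, B2M -0.35 to 0.17. In siMECOM against siSOX17 the ranges were HLA-B -0.16 to 0.36, HLA-C -0.088 to 0.44. In the additivity comparison the ranges were HLA-B -0.38 to 0.14, HLA-C -0.27 to 0.26, B2M -0.23 to 0.29. In siNT1 against siNT2 the ranges were HLA-B -0.24 to 0.14, HLA-C -0.19 to 0.11, HLA-F -0.28 to 0.40, B2M -0.29 to 0.023, TAP1 -0.15 to 0.15, NLRC5 -0.14 to 0.12.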
